A study of Mus musculus with 2 samples.

Results

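The genes described here are 10 members of one immune receptor system: the SLAM family receptor genes Slamf1, Cd48, Ly9, Cd244, Cd84, Slamf6, Slamf7, Slamf8 and Slamf9, and Sh2d1a, which encodes the adaptor SAP. They were taken by name from the gene annotation of the arrays, which gave 14 of 55676 non-control probes, or 10 of 34960 gene names. Total RNA of sorted regulatory T (Treg) cells was hybridised to 1-colour Agilent mouse arrays, with 1 array for Nr4a-TKO mice and 1 for wild-type mice, all 5 weeks old. The labels give the genotype only as Nr4a-TKO, and the design text calls those cells Nr4a-deficient. The sex and number of mice, the strain, the sort markers and the way the genes were disrupted are not given in the sources used here. There are no replicates, so each difference below lies between 2 arrays and has no p-value and no error from mice.

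SLAM receptors are immunoglobulin-like proteins on blood cells, and most of them bind the same receptor on a neighbouring cell. Several carry tyrosine switch motifs in their tails, which recruit the small SH2 domain protein SAP and through it the kinase Fyn, or phosphatases where SAP is missing. In T cells this system sustains long contacts with B cells, and follicular helper T cells and NKT cells depend on SAP. Treg cells are CD4 T cells that hold immune responses back, and the nuclear receptors of the Nr4a family act downstream of the T cell receptor. By its title the series ties Nr4a to the transcription program of Treg cells and to restraint of the Th2 and Tfh responses, and the comparison asks how these genes stood in Treg cells of both genotypes.

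Probes are 60 bases long. A few of the 14 are shown here, 5′ to 3′ as they stand in the array annotation, with mm9 coordinates. The first pair is shown because these probes lie on the switch motif itself. Capitals mark the 6 codons, found by translation in a frame with no stop, that spell threonine, any residue, tyrosine, any 2 residues, then valine or isoleucine.
Ly9, dimmer probe, chr1:173523555-173523614, minus strand: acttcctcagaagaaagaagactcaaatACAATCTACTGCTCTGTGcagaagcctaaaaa
Slamf6, brighter probe, chr1:173871767-173871826, plus strand: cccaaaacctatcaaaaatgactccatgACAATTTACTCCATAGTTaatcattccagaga
Such a run occurred in 2 of the 14 member probes and in 166 of 55676 probes on the array (0.298%). In both probes it filled bases 29 to 46. For the members that differed by 2-fold or more at the brightest probe, except Slamf9, which was near the background, the first 30 bases are given.
Sh2d1a, chrX:39875116-39875175, plus strand: ggattggaaaactgaatcccttagggtatt
Slamf7, chr1:173562534-173562593, minus strand: tgagccaggtgctgtgttacactttcatgg
Slamf1, chr1:173730343-173730402, plus strand: ttttagagcctcttatgcttcaaacaacag

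Of the genes in the genotype's name, Nr4a1 had a signal of 93683 in the array labelled Nr4a-TKO and 99275 in wild-type, Nr4a2 had 853 in Nr4a-TKO and 371 in wild-type, and Nr4a3 had 50.2 in Nr4a-TKO and 385 in wild-type. Only Nr4a3 was lower by 2-fold or more. The altered parts of these genes are not given, so these probes need not check the genotype, which stands below as a label. Of 55676 probes, the scanner called 35572 (63.9%) well above background in the array labelled Nr4a-TKO and 36740 (66.0%) in wild-type, and 0 saturated. The arrays shared a slide and a scan time, and their number limits the precision of every value.

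In the array labelled Nr4a-TKO, Slamf7, Slamf1 and Slamf9 were higher by at least 2-fold and Sh2d1a was lower by at least 2-fold, relative to wild-type. Of the 10 members, 9 were well above background on both arrays by the scanner's own call, and Slamf8 was so in wild-type only. The share of all 23494 gene names measured on both arrays that was at least 2-fold higher was 3.15%, and 3.06% was at least 2-fold lower. Among the 14204 of these matched to RefSeq the shares were 4.03% and 2.82%. The members differed in direction, with a median over the 9 of 0.27 on the log2 scale, beside 0.08 over all gene names. Each difference is a log2 ratio of Nr4a-TKO over wild-type, taken once the signals had been divided by the 75th percentile of their array, a signal of 752 for Nr4a-TKO and 831 for wild-type. Signals are given before that scaling, in the scanner's arbitrary units. Each member probe had 1 spot per array, and the scanner's error model gave an error of 0.20 for the log2 difference of a bright probe and up to 0.44 for the dimmest.

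**Figure D1:**
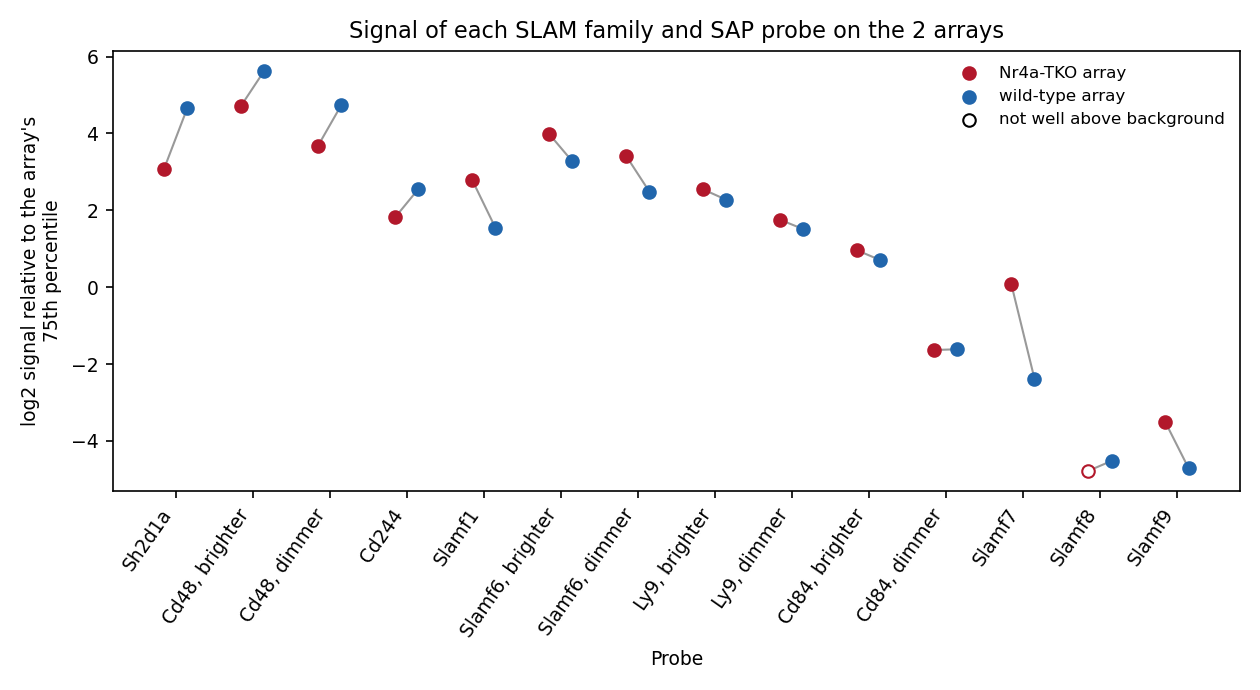
Log2 signal relative to the array's 75th percentile (vertical axis) for each of the 14 member probes (horizontal axis), with the Nr4a-TKO array in red on the left and the wild-type array in blue on the right of each pair. Filled points are well above background. The Sh2d1a, Cd48 and Cd244 pairs run upward to wild-type and the Slamf1, Slamf6 and Slamf7 pairs run downward.

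Sh2d1a, the gene of the adaptor SAP, had a signal of 6383 in the array labelled Nr4a-TKO, against 20942 in wild-type. It was lower by 2.97-fold (log2 difference -1.57, scanner error 0.20), and 1.23% of gene names were at least that low. The probe was bright on both arrays, so the difference lies between 2 readable levels and not at the background. Over 11 other settings it stayed between -1.84 and -1.55. The adaptors most like SAP, Sh2d1b1 and Sh2d1b2, which encode EAT-2 and ERT and are used mainly by NK cells, were dim. Sh2d1b1 stayed at background on both arrays (10.5 in Nr4a-TKO, 22.3 in wild-type), and Sh2d1b2 was above it in wild-type only (27.1 in Nr4a-TKO, 46.5 in wild-type).

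The Sh2d1a gene lies on the X chromosome, and sex-linked RNAs also differed between these arrays. Xist, the RNA that coats the inactive X of females, had signals of 1557 to 23563 over its 7 probes in the array labelled Nr4a-TKO, against 6.07 to 53.0 in wild-type, and no probe went the other way. Y-linked Ddx3y was lower by 3.63-fold, with signals of 978 in Nr4a-TKO and 3921 in wild-type. Eif2s3y was lower by 1.97-fold, with 4559 in Nr4a-TKO and 9938 in wild-type. Both were well above background on each array, the one labelled Nr4a-TKO included. Uty differed by -0.60 at its brightest probe and by -1.44 at another. Kdm5d was well above background in wild-type only and was at least 1.87-fold lower. For 874 gene names with a value on each array, the array annotation placed the brightest probe on the X chromosome. Of these, 2.97% (26) were higher by 2-fold or more and 3.09% (27) were lower by as much, with a median of 0.08. What part sex or genotype had in the Sh2d1a value was not tested.

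T cell genes were also mostly lower in that array, most of them by smaller amounts. All 9 T cell markers were measured on both arrays, with a median of -0.39 (summed scaled signal 556 in Nr4a-TKO and 605 in wild-type), and 7 of them were lower by any amount. Cd3e differed by -0.36, Cd3d by -0.52 and Cd4 by -0.52, while Trat1, which encodes a partner of the T cell receptor, was lower by 4.15-fold. The 2 higher ones were Cd6 and Thy1, at 0.31 and 0.12. All 10 Treg markers were measured, with a median of -0.42, and 7 of them were lower by any amount. Their summed scaled signals, in which Tnfrsf4, Tnfrsf18 and Il2ra were the main part, were 542 in Nr4a-TKO and 733 in wild-type. Of the 10, Nrp1 was past 2-fold higher at 1.69 on the log2 scale, and Gpr83 and Tigit were higher by 0.20 and 0.31. Foxp3, Ikzf2 and Ctla4 were past 2-fold lower at -4.11, -1.62 and -1.20. Foxp3, the X-linked gene of the factor that defines Treg cells, had a signal of 127 in the array labelled Nr4a-TKO and 2412 in wild-type. In bulk RNA, fewer cells of a type and less RNA per cell cannot be told apart, and the part these markers have in the Sh2d1a value was not tested.

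Cd48 and Cd244 encode a binding pair: CD48 is a lipid-anchored protein found on most blood cells, and CD244 (2B4) is its receptor on NK cells and some T cells. Both were lower in the array labelled Nr4a-TKO at every probe. The brighter Cd48 probe, at chr1:173635201-173635260, had a signal of 19854 against 41183 in wild-type, or 1.88-fold lower. The dimmer one, at chr1:173629721-173629780, had 9676 against 22163 in wild-type, or 2.07-fold lower. Those log2 differences of -0.91 and -1.05 lie 0.14 apart, within the scanner error of 0.20, and on the 2 sides of a 2-fold line. The brighter probe passed 2-fold with quantile normalization, with loess, and when arrays were centred on housekeeping genes or on spike-ins.

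Cd244, probed at chr1:173515388-173515447, had a signal of 2655 in the array labelled Nr4a-TKO and 4874 in wild-type, a difference of -0.73 with a scanner error of 0.20. It passed 2-fold only with spike-ins as the centre, at -1.01. Cd2, whose product also binds CD48 in mice, had a signal of 117205 in Nr4a-TKO against 195122 in wild-type at its brighter probe, and its probes differed by -0.59 and -0.88 on the log2 scale. The grouping of members by binding partner was made with these values known.

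Slamf1, Ly9, Cd84, Slamf6 and Slamf7 encode the receptors that bind themselves. At the brighter probe of each, all 5 stood higher in the array labelled Nr4a-TKO, although Ly9 and Cd84 did so by small amounts that turned to -0.0041 and -0.022 with spike-ins as the centre. Of their 8 probes, 7 were higher by any amount and 1, for Cd84, was lower.

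Slamf7, also called CRACC or CD319, is a receptor known from NK cells, plasma cells and activated lymphocytes and myeloid cells. It had the largest difference of the 10 members, with a signal of 791 in the array labelled Nr4a-TKO and 159 in wild-type. That is 5.49-fold higher (2.46 on the log2 scale, scanner error 0.21), and 0.387% of gene names were at least that high. Both signals were well above background, and the wild-type level was low. Normexp background correction, which shrinks the differences of dim probes, gave 4.05-fold, the lowest value in 11 other settings.

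Markers of other cells that carry Slamf7 were read on the same arrays. Among 9 CD8 and NK cell markers 7 were measured on both arrays, and Gzma was higher by 3.44-fold and Eomes by 2.47-fold. Klrd1 was at least 6.25-fold lower, Klrb1c stayed at background on both arrays, and the summed scaled signal of the list was 2.87 in Nr4a-TKO and 3.04 in wild-type. Among 6 plasma cell markers 4 were measured. Sdc1 was higher by 3.17-fold, while Prdm1, Xbp1 and Irf4 differed by -0.72, -0.30 and -0.07 on the log2 scale. Jchain and Tnfrsf17 stayed at background on both arrays. The sums, in which Xbp1 and Irf4 were the main part, were 112 in Nr4a-TKO and 128 in wild-type. Among 9 B cell markers 6 were measured, Cd79b was higher by 2.51-fold, Ms4a1 stayed at background on both arrays, and the sums were 2.07 in Nr4a-TKO and 1.53 in wild-type. Of 13 macrophage and dendritic cell markers 8 were measured, 0 differed by 2-fold, Cd14, Itgax and Clec9a stayed at background on both arrays, and the sums, in which Siglech was the main part, were 150.1 in Nr4a-TKO and 152.8 in wild-type. The part of these cells in the Slamf7 value was not tested.

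Slamf1, the founding receptor of the family (CD150), marks activated T cells and tunes their IL-4 output in mice. Its signal was 5191 in the array labelled Nr4a-TKO and 2434 in wild-type, which is 2.36-fold higher (1.24 on the log2 scale, scanner error 0.20). It came to 1.95-fold with spike-ins as the centre and stayed over 2-fold in the other 10 settings. About 2.02% of gene names were at least that high.

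Slamf6 (Ly108) acts with SAP in the adhesion of T cells to B cells. Its brighter probe, which carries the switch motif shown above, had a signal of 11895 in the array labelled Nr4a-TKO and 8031 in wild-type. Its dimmer probe, at chr1:173873620-173873679, had 7999 in Nr4a-TKO against 4656 in wild-type. The differences were 0.71 and 0.92 on the log2 scale, with a scanner error of 0.20 each, so both probes were higher and neither reached 2-fold.

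Ly9 (CD229) and Cd84 differed least. Ly9 encodes a receptor with a doubled outer domain, present on T and B cells. Its probes, the brighter at chr1:173518744-173518790, had signals of 4383 and 2533 in the array labelled Nr4a-TKO, against 4015 and 2366 in wild-type, with differences of 0.27 and 0.24. Cd84, whose product supports T cell contacts with B cells, had signals of 1459 and 242 in the array labelled Nr4a-TKO, against 1353 and 271 in wild-type. Its brighter probe spans a gap, with ends at chr1:173816502-173818732, and differed by 0.25. Its dimmer probe, at chr1:173820027-173820086, differed by -0.02. These 4 differences stand beside a scanner error of 0.20 to 0.21 each and a median of 0.08 over all gene names.

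**Figure D2:**
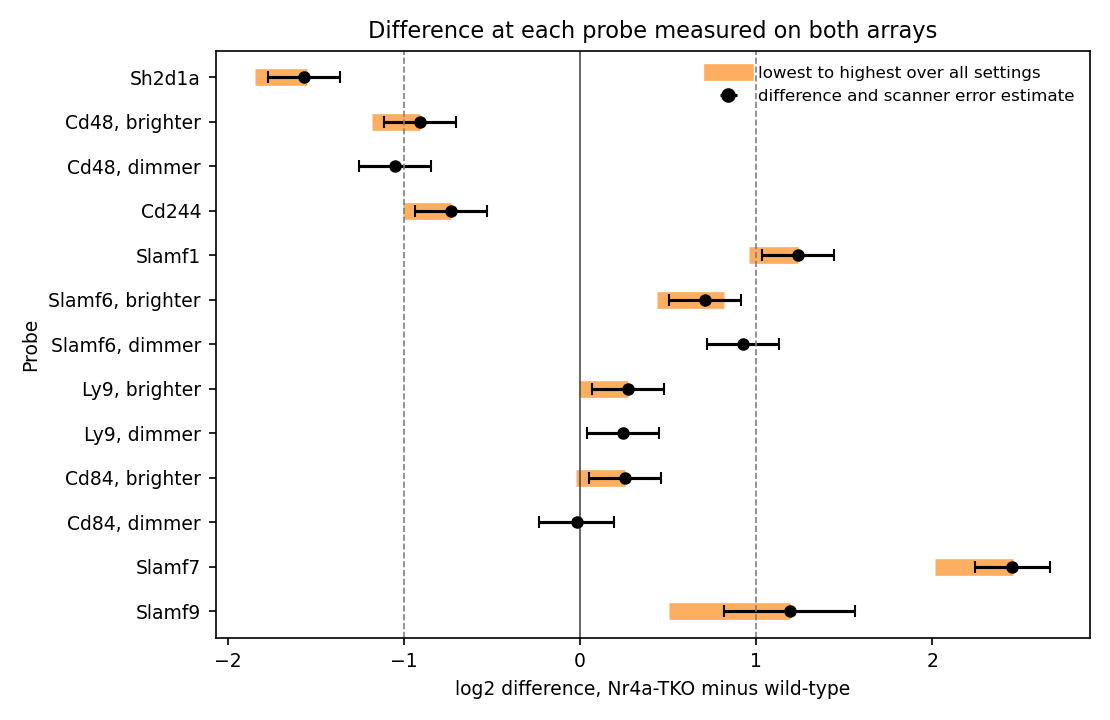
Log2 difference, Nr4a-TKO minus wild-type (horizontal axis), at each of the 13 member probes measured on both arrays (vertical axis). Points carry bars of 1 scanner error estimate, orange bars, drawn at the brighter probe, run from the lowest to the highest value of the gene over all settings (1 of which averages its probes), and dashed lines mark 2-fold. Sh2d1a and Slamf7 stay past 2-fold over the whole orange bar.

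Slamf8 and Slamf9 lie apart from the other receptors, have short tails without the switch motif, and are known from macrophages and dendritic cells. Both were near the background. Slamf8, probed at chr1:174512067-174512126, had a signal of 27.4 in the array labelled Nr4a-TKO, not well above background, against 36.2 in wild-type. Its bound of at least 1.17-fold lower lies inside the scanner error of that probe, 0.44 on the log2 scale, and normexp turned the difference to 0.03, so the arrays give Slamf8 no settled direction. Slamf9, probed at chr1:174408455-174408514, had 65.8 against 31.8 in wild-type, or 2.28-fold higher, with a scanner error of 0.37 on a log2 difference of 1.19. The lowest signal that counted as well above background was 28.6 on the Nr4a-TKO array and 26.1 on the wild-type array, and the Slamf9 call does not hold in every setting. The log2 difference was 0.50 (1.42-fold) with normexp and 0.92 when arrays were centred on spike-ins, both under 2-fold, and the gene dropped out under a stricter filter on dim probes.

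Of the members, 9 lie on chromosome 1. The probes of Cd244, Ly9, Slamf7, Cd48, Slamf1, Cd84 and Slamf6 fall within 358.3 kb, and 0 other genes with a RefSeq name had their representative probe inside that stretch. Neighbours in the row differed in direction: going along the chromosome the values were -0.73 for Cd244, 0.27 for Ly9, 2.46 for Slamf7, -0.91 for Cd48, 1.24 for Slamf1, 0.25 for Cd84 and 0.71 for Slamf6. Of 46 other RefSeq genes within 500 kb of the outermost SLAM probes, 36 had a value on each array, and their median was 0.12. Of the 36, 2 were past 2-fold higher, beside 4.03% of all gene names matched to RefSeq. Klhdc9 was higher by 2.16-fold and F11r, an adhesion molecule of cell junctions, by 2.53-fold. Both were dim, with signals of 255 and 122 in Nr4a-TKO against 130 and 53.2 in wild-type. Itln1 and Vangl2, on either side of the 7-gene stretch, differed by 0.27 and 0.49, and Igsf9 and Tagln2, next to Slamf9, by 0.04 and 0.36.

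**Figure D3:**
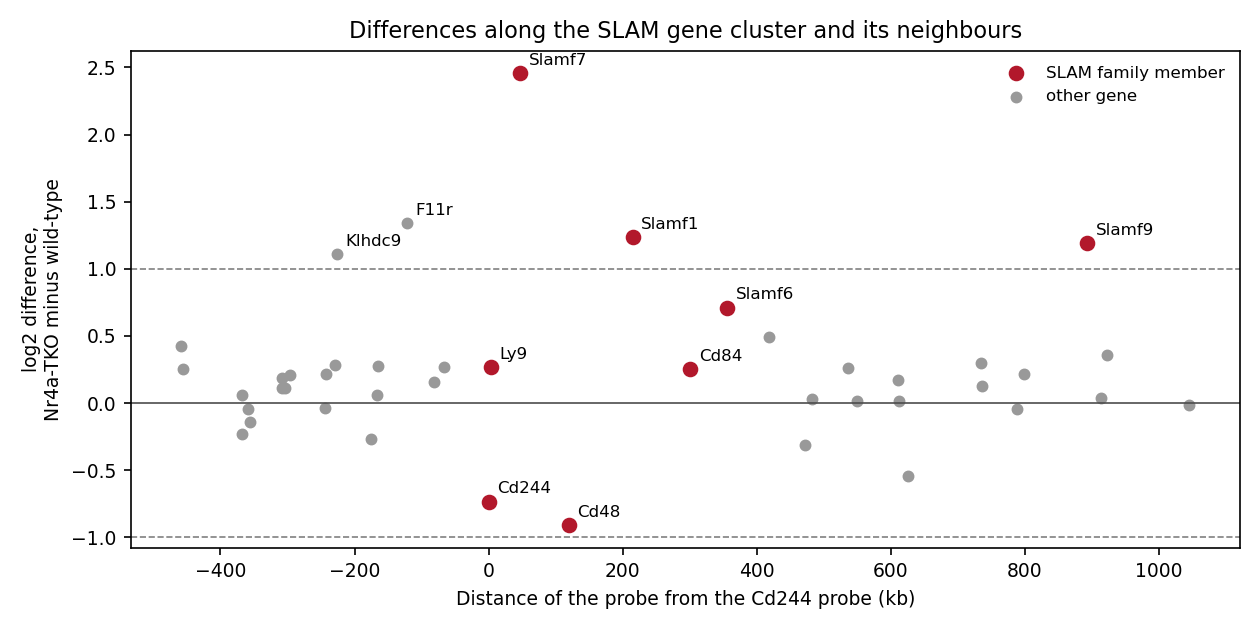
Log2 difference, Nr4a-TKO minus wild-type (vertical axis), against the distance of the probe from the Cd244 probe in kb (horizontal axis), for SLAM members in red and other RefSeq genes in grey, all measured on both arrays, with 1 neighbour not shown. Most grey points lie near 0, and the red points spread from -0.91 to 2.46.

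Of 28 genes for molecules that relay SLAM and SAP signals, 26 had a value on each array. Their median was -0.10, beside 0.08 over all gene names. At the brightest probe, 1 of the 26 passed 2-fold in each direction, a share near the 3.15% higher and 3.06% lower over all gene names. The higher call was lost with quantile normalization, loess, spike-ins or housekeeping genes as the centre, and the lower call with normexp. Malt1, which encodes a protease of the NF-kB pathway, was higher by 2.11-fold, with signals of 24291 in Nr4a-TKO and 12694 in wild-type. Pik3r1, a regulatory subunit of PI3-kinase, was lower by 2.10-fold, with 662 in Nr4a-TKO and 1535 in wild-type. Prkcq differed by -0.38 at its brightest probe and by -1.07, past 2-fold lower, at another. Fyn, the kinase that SAP brings to the receptors, is named for that role, with its values already seen. It had signals of 1996 in the array labelled Nr4a-TKO and 3292 in wild-type, a difference of -0.58. Lck, its close relative at the T cell receptor, differed by 0.04. Among the phosphatases that bind the same tails, Ptpn6 (SHP-1) differed by -0.49 and Ptpn11 (SHP-2) by 0.01. The exchange factor gene Vav1 differed by -0.01, the adaptor gene Dok2 by -0.07 and Pik3cd, a catalytic subunit of PI3-kinase, by -0.62.

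The 20 genes of T cell contact with and help to B cells were all measured. Their median was 0.44, beside 0.08 over all gene names. Of the 20, 3 passed 2-fold higher and 1 passed it lower, beside 3.15% higher and 3.06% lower over all gene names. The higher ones were the helper cytokine genes Il21 and Il4 and the gene of the ICOS ligand, Icosl. Signals of Il21 were 6229 in Nr4a-TKO and 449 in wild-type, and those of Il4 2076 in Nr4a-TKO and 468 in wild-type. Those of Icosl were lower, 216 in Nr4a-TKO and 114 in wild-type, and its difference of 1.07 was just past 2-fold. Itgb2, the beta chain of the adhesion integrin LFA-1, was lower by 2.24-fold, with 10083 in the array labelled Nr4a-TKO against 24996 in wild-type. Of the others brightest by the mean log2 signal of both arrays, the co-stimulator genes Icos and Cd28 differed by 0.60 and -0.56, the inhibitory receptor genes Btla and Cd5 by 0.70 and 0.36, and the cytokine receptor gene Il6ra by -0.20. Of 8 NKT cell genes 4 were measured on both arrays and 0 of them passed 2-fold at the brightest probe. Cxcr6 differed by -0.87 there and by -1.17, past 2-fold lower, at its other probe. Klrd1, well above background in wild-type only, was at least 6.25-fold lower. Zbtb16, the defining factor of NKT cells, stayed at background on both arrays.

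**Figure D4:**
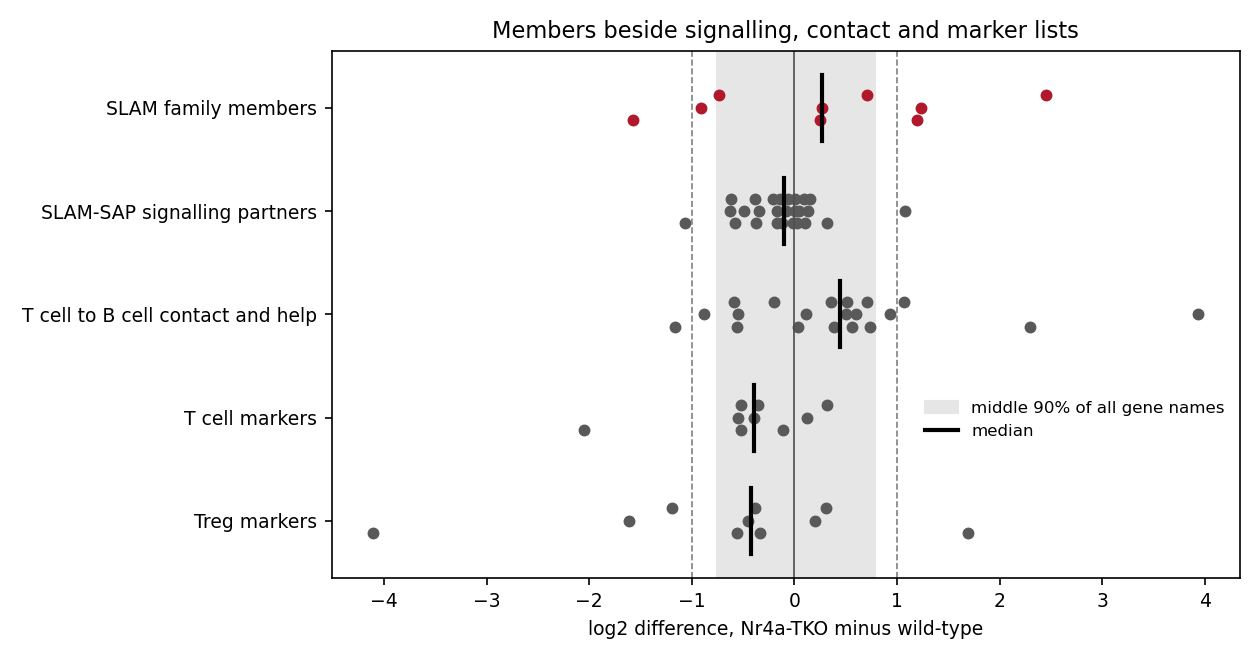
Log2 difference, Nr4a-TKO minus wild-type (horizontal axis), of each gene measured on both arrays, for the SLAM family members in red and the lists of signalling partners, contact and help, T cell and Treg markers in grey (vertical axis). Black lines are medians and the shaded band holds the middle 90% of all gene names. The median of the members is 0.27 and that of their signalling partners -0.10.

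Centring on spike-ins moved the median of all gene names by -0.27 and left 26.4% of the names past 2-fold on the higher side, against 50.7% in the setting used here, and with it the members past 2-fold became 1 higher and 3 lower. Centring on housekeeping genes moved the median by -0.13 and gave 39.4%, with 3 members higher and 2 lower.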

How the data were processed

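The authors deposited spot intensity values of 2 arrays from Agilent Feature Extraction 10.10.1.1, with detrending and surrogates for dim spots switched on and annotation on mm9, per the file headers. The deposited log2 table, for which the sources used here give no scaling, had column medians of -3.53 (Nr4a-TKO) and -3.54 (wild-type). Set against the scanner values, it equalled log2 of the processed signal after a shift that was constant within an array (SD of the remainder 0.00029). Its direction is that of the signals.

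Control spots (3671 of 62976) and outlier spots (117 in Nr4a-TKO and 156 in wild-type) were dropped, and log2 signals, averaged over the spots of a probe, were centred on the 75th percentile of the array. Accessions gave current names to 27508 probes through RefSeq (GRCm38.p6, names only). Each gene took the value of its brightest probe, and counts cover genes for which the scanner called that probe well above background in each array. Not well above background is written as at background. A bound sets the bright array against the higher of the dim array's own value and its lowest signal well above background. "Called" means at least 2-fold, and no test was run, since each genotype has 1 array. Scaled signals in sums are linear.

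The members and lists were chosen with earlier results of these data known. All members were named at every probe. Of the partner and contact lists, genes past 2-fold and the 6 brightest others by mean log2 signal were named. Of other lists, genes past 2-fold, defining markers, main parts of sums and some genes that differed less were named. Fyn was added for its role and Prkcq for its other probe. A few genes of the lists and the neighbourhood are not reported here. The counting step was tested on simulated data. Alternatives were background correction, scaling, normalization, probe summary, filter and threshold. Python 3.11.15, numpy 2.4.6, pandas 2.3.3, matplotlib 3.10.9, R 4.3.3 and limma 3.58.1 were used.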

Additional observations from a re-analysis of the deposited data

How the results depend on the processing

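Sh2d1a and Slamf7 kept their direction and stayed past 2-fold in all 11 alternatives that gave them a value. Members at least 2-fold higher and lower numbered 3 and 1. Centring on spike-ins gave 1 and 3, and a 3-fold threshold 1 and 0, while the number lower became 2 with quantile normalization, loess or housekeeping genes as the centre and 3 at 1.5-fold. The number higher became 2 with normexp or with a stricter filter on dim probes, where Slamf9 dropped out, and 4 at 1.5-fold. The median of the members, 0.27, became -0.0041 with spike-ins and 0.14 with housekeeping genes as the centre. Signalling partners past 2-fold, 1 higher and 1 lower, became 0 lower with normexp, 0 higher with quantile normalization, loess, spike-ins or housekeeping genes, 3 lower at 1.5-fold and 0 in each direction at 3-fold. Over all gene names 741 were higher and 720 lower. Normexp gave 475 higher and 456 lower, spike-ins gave 449 higher and 1250 lower, and no filter on dim probes gave 1988 higher and 1834 lower. A threshold of 1.5-fold gave 1965 higher and 1728 lower, and one of 3-fold gave 288 higher and 283 lower. The filter, threshold and centring counts move by construction, and for the others the cause was not tested. No array could be left out, and no paired analysis was possible because each genotype has 1 array. The SD between spots of a probe, over 262 probes with several spots, gave 0.080 for a log2 difference, and over 6750 genes with several probes the gap between probes had a median of 0.25. Both hold no variation between mice.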

Other observations

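RefSeq start sites (GRCm38.p6) were at hand for 8 of the 10 members: Slamf1, Cd48, Cd244, Cd84, Slamf6, Slamf7, Slamf8 and Slamf9. The NBRE element AAAGGTCA, which Nr4a receptors bind as single molecules, was searched on both strands from 250 bases before to 50 after each start. None of these 8 windows held those letters, against 495 of 32851 promoters in the table (1.51%), and nothing follows from that for sites elsewhere.

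Genes that mark granulocytes and mast cells, innate cells of the blood and tissues, differed in both directions. Of 12 markers 6 were measured on both arrays, where Mpo was lower by 7.76-fold, Kit lower by 5.40-fold and Ly6g higher by 6.72-fold in the array labelled Nr4a-TKO. Another 4, S100a8, S100a9, Mcpt8 and Prg2, were well above background in wild-type only and were lower by at least 2.61-fold, 3.02-fold, 2.56-fold and 2.38-fold. The share of all gene names seen so in wild-type only is not given here. Of all probes, 66.0% were well above background in wild-type and 63.9% in Nr4a-TKO.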
